A study of Mus musculus with 25 samples.

Results

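Chil3, Il4ra, Odc1 and Nos2 were picked by name and are 4 of the 22439 genes in the count matrices of myeloid cells sorted from mouse spinal cord. Cells came from a 5 mm lesion segment after spinal cord injury, or after laminectomy alone (Ctrl, in which the vertebral arch is opened and the cord left uninjured). Each of the 25 droplet libraries pooled 1 to 3 mice, so the library was the replicate, and the spread between libraries may be partly technical.

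Every mouse, controls included, carried Cx3cr1CreERT2, an inducible Cre recombinase at the locus of the fractalkine receptor Cx3cr1, so cells were gated through that gene's reporter (YFP). Mixed libraries (12) held all YFP+ cells of that strain, with the same allele alone. Resident libraries (5, RFP+/YFP+) and infiltrating libraries (7, RFP-/YFP+) came from Cx3cr1CreERT2:R26tdTomato mice, which add a red reporter that Cre switches on. Strain and sort are therefore split the same way between mixed libraries and the rest. Besides the 2 Ctrl libraries there were 5 from 1 day after injury (D1), 4 from 2 days (D2), 7 from 3 days (D3), 5 from 10 days (D10) and 2 from 21 days (D21). The D3 library whose title and sort label disagree, D3_conflict 1, stayed out of the main comparisons; levels pooled over all 25 libraries hold it. No ages are given in the labels.

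Libraries held 155 to 3800 cells and 486649 to 33204422 UMIs, the counted molecules. No complete cell barcode occurred in more than 1 library, and 127 of the 16-base barcodes did once suffixes were removed. Levels are CPM, the counts of a gene per 1000000 UMIs of the cells summed. The assay counts 3′ ends once per molecule, so levels of different genes were compared without a length correction. The deposited cell type codes carry no names and were named here from their markers. The microglia-like code, called microglia below (13289 cells), had 9 of 9 microglia markers raised, the macrophage-like code, called macrophages (12841 cells, monocytes included), 8 of 8 macrophage and 4 of 8 monocyte markers, and neutrophil-like cells (2116) 7 of 7. Dendritic-like cells (2712) had 5 of 8 dendritic markers raised, and also 3 of 8 monocyte markers (Ccr2, Plac8 and Ly6a). Their summed monocyte list was 2953 CPM, against 2224 CPM in macrophages. Neutrophil-like cells had 2 of 8 monocyte markers raised. The authors made codes and clusters from the expression of these same cells, so levels across them are described and not tested.

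Alternative activation is the state that IL-4 and IL-13 bring about in macrophages. Il4ra is the receptor chain shared by both, and its STAT6 signalling raises Chil3, a secreted chitinase-like protein (Ym1) widely used to mark that state. Nos2, inducible nitric oxide synthase, turns arginine into nitric oxide and citrulline and is the textbook gene of classical activation. Odc1, ornithine decarboxylase, turns ornithine into putrescine as the entry step of polyamine synthesis.

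Macrophages held 96.5% of the 278590 Chil3 UMIs of the series, and 120993910 of its 208598903 UMIs of all genes. Neutrophil-like cells held 2.60% of the Chil3 UMIs, with 4818543 UMIs of all genes. Macrophages of D3_conflict 1 alone had 99236 Chil3 UMIs. Pooled over libraries, Chil3 stood at 2223 CPM in macrophages and 1502 CPM in neutrophil-like cells. It was low in dendritic-like cells (70.4 CPM) and microglia (3.80 CPM). Nos2 was rare everywhere, with 286 UMIs in the whole series, and was highest in neutrophil-like cells, at 21.4 CPM with D2_infiltrating 1, which held 69 of their 103 Nos2 UMIs, and 8.23 CPM without it. Il4ra (330 CPM in neutrophil-like cells, 78.0 to 102 CPM in the others) and Odc1 (35.0 to 43.8 CPM in all of them) were spread over every cell type.

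Among the 16 deposited clusters Chil3 was highest in macrophage cluster 12 (5330 CPM), followed by clusters 11 (2829 CPM) and 13 (2453 CPM) and the neutrophil-like cluster 16 (1502 CPM). Macrophage cluster 8 had 1002 CPM. Odc1 did not follow Chil3. It was 83.1 CPM in microglia cluster 5 (1265 UMIs) and 89.6 CPM in macrophage cluster 14, where 31 UMIs in 118 cells leave its place in the order uncertain. These cluster levels pool all 25 libraries, so they also carry the time points and libraries that fill each cluster.

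**Figure D1:**
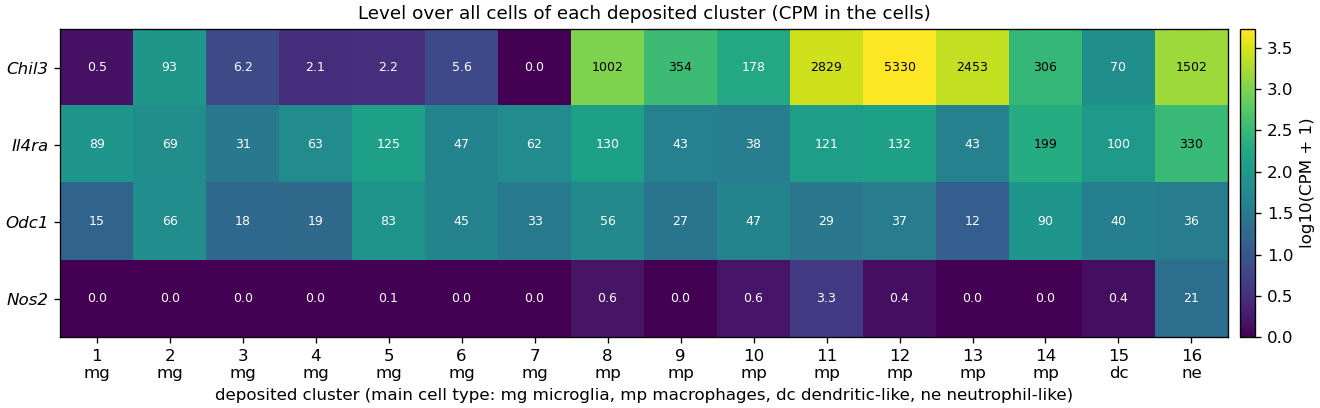
CPM of the 4 genes (rows) in the 16 deposited clusters (columns, with the main cell type below each number); colour is log10(CPM + 1). Chil3 peaks in clusters 12, 11 and 13, Odc1 in clusters 14 and 5, and Nos2 and Il4ra in the neutrophil-like cluster 16.

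The question asked of macrophages was how these genes changed from D1 to D21, fitted over the infiltrating and mixed libraries with edgeR's quasi-likelihood test across 8577 genes. Chil3 was lower in each D10 and D21 library than in any D1 library, and its call at D21 did not hold in several settings. Its D1 libraries had 3106 and 2946 CPM (infiltrating) and 1352 and 2304 CPM (mixed), and its D2 libraries 2567 CPM (infiltrating), 733 and 2062 CPM (mixed). At D3 the infiltrating library had 1625 CPM and the mixed one 343 CPM, below both mixed libraries of D10. At D10 the sorts parted: 64.2 and 265 CPM in infiltrating libraries against 1225 and 768 CPM in mixed ones, all below the lowest D1 library. At D21 they read 153 CPM (infiltrating) and 2.99 CPM (mixed, 1 UMI). The change from D1 to D10 was -2.50 ± 0.82 (log2, SE), just outside the threshold (edgeR adjusted p = 0.0543; 0.000313 to 0.220 over the alternatives). DESeq2 called it (adjusted p = 0.0271). It was also past the threshold without D1_mixed 1, D2_infiltrating 1, D3_infiltrating 1 or D3_mixed 3 (edgeR adjusted p = 0.0434 to 0.0463). Within the infiltrating libraries it was -4.64 (edgeR adjusted p = 0.000313) and within the mixed libraries -0.74 (edgeR adjusted p = 0.183); the difference between sorts was not tested. From D1 to D21 Chil3 fell by 5.20 ± 1.22 (log2, SE; edgeR adjusted p = 0.0303), a call not past the threshold without either D21 library (adjusted p = 0.156 and 0.158) or without D1_infiltrating 2 (0.0744). Nor did it pass with sequencing pool as a term (0.0618), with D3_conflict 1 as an infiltrating library (0.0530) or without cluster 3 (-4.19; 0.162). Fewer Chil3 molecules per cell and fewer cells with Chil3 cannot be told apart in such sums.

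Cells thinned to 1000 UMIs gave the time course as shares. A UMI of Chil3 was found in 41.2% ± 18.8 (SD, n = 4) of macrophages at D1, 40.4% ± 13.7 (n = 3) at D2, 28.3% ± 8.07 (n = 2) at D3, 11.3% ± 9.40 (n = 4) at D10 and 1.69% ± 2.38 (n = 2) at D21. Unthinned, the shares were 49.6% ± 23.4, 51.6% ± 20.9, 44.3% ± 5.12, 18.3% ± 9.34 and 2.33% ± 1.48. As a background for free RNA, the share in microglia of the 5 libraries of D3 was 0 to 1.97% thinned and 0 to 4.03% unthinned, and D21 microglia had no Chil3 UMI. Of the D21 macrophages, 3 of 89 in D21_infiltrating 1 had a Chil3 UMI (3.37%; 104 UMIs in all) and, unthinned, 1 of 78 in D21_mixed 1 (1.28%). In control microglia (n = 2) the share was 0.0350% ± 0.0495 thinned and 0.140% ± 0.198 unthinned. Their libraries held no macrophages, so these shares cannot show the free RNA of libraries with macrophages. The median depth was 3062 UMIs over all microglia and 9144 UMIs over macrophages.

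**Figure D2:**
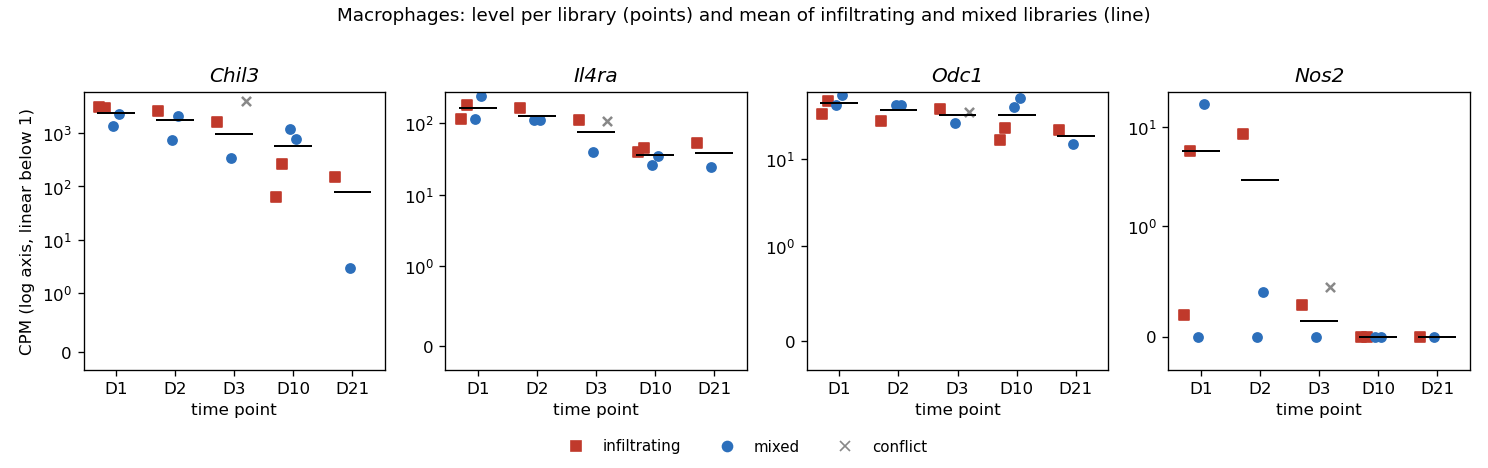
CPM per library (points, log axis, linear below 1) in macrophages of each time point, with the mean of infiltrating and mixed libraries as a line and D3_conflict 1 as a grey cross outside it. Il4ra has 108 CPM or more in every D1 and D2 library and 44.6 CPM or less in every D10 library, while Odc1 stays between 14.9 and 55.9 CPM.

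Chil3 has a paralog next to it in sequence, Chil4. Of the 451 stretches of 50 bases in the last 500 bases of the Chil3 transcript, 77 (17.1%) also occur in Chil4, so reads there may have been split between the pair or dropped. Chil3 lies on the minus strand at chr3:106147554-106167564 (GRCm38, GENCODE M21). The RefSeq promoter table was matched by symbol for Chil3, Il4ra and Odc1, 3 of the 4 genes. The Chil3 promoter is shown because Chil3 is the member with the widest range across macrophage clusters. It covers the 250 bases before the start, minus strand (GRCm38.p6, chr3:106167565-106167814), with matches in capitals to GGAAGT (the core of PU.1 and other ETS factor sites) or to TTNNGNAA (a C/EBP-type site), searched on both strands:
Chil3 promoter: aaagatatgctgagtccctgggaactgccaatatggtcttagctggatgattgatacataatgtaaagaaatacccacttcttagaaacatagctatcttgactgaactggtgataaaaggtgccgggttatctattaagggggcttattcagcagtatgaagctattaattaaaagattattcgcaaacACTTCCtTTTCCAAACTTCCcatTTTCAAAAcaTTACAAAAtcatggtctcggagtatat
GGAAGT matched 2 times and TTNNGNAA 3 times, all near the start site, and 1 pair of matches shares a base. At least 1 match occurs in 19.7% (GGAAGT) and 36.9% (TTNNGNAA) of the 32851 promoters of that length, so either is common. The STAT6-type site (TTC and GAA with 4 bases of any kind between them) is not in this window and is found in 5.85% of promoters. Other spacings of TTC and GAA were not searched. TATAAA (12.4%) and CACGTG (6.02%) have no match in it, and none of the 5 motifs matched in the windows of Il4ra and Odc1. The motifs were chosen with the sequence in view.

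Il4ra, the receptor chain (plus strand, chr7:125552120-125579474), fell in macrophages. D1 libraries had 113 and 175 CPM (infiltrating) and 114 and 236 CPM (mixed), D2 libraries 108 to 159 CPM, and D3 libraries 108 and 38.9 CPM. At D10 they had 39.2 and 44.6 CPM (infiltrating) and 26 and 34.4 CPM (mixed), all below the D1 and D2 libraries. The change from D1 to D10 was -2.07 ± 0.32 (log2, SE; edgeR adjusted p = 0.00217; 3.27e-07 to 0.00997 over the alternatives). At D21 Il4ra was at 53.0 and 23.9 CPM (edgeR adjusted p = 0.0309 against D1). That call was not past the threshold without D1_infiltrating 2 (adjusted p = 0.0841), D1_mixed 3 (0.0536), D21_infiltrating 1 (0.234) or D21_mixed 1 (0.176). It also failed with the pool term (0.295), at equal depth (0.106), without cluster 10 (0.0849), without cluster 3 (0.154) and in mixed libraries alone (0.316). Il4ra shares exon sequence with Gm44876, an antisense gene on the opposite strand, and how strand was counted is not given in the sources used here.

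Odc1 (plus strand, chr12:17544794-17551505) overlapped between D1 and D10 in macrophages. Its D1 libraries had 33.2 and 47.4 CPM (infiltrating) and 42.4 and 55.9 CPM (mixed), and its D10 libraries 16.9 and 23.1 CPM (infiltrating) and 40.7 and 51.0 CPM (mixed). The change was -0.48 ± 0.27 (log2, SE; edgeR adjusted p = 0.251), and it was 0.03 within the mixed libraries and -1.10 within the infiltrating ones (edgeR adjusted p = 0.968 and 0.0300). Without cluster 10 it was -0.89, past the threshold (edgeR adjusted p = 0.0225).

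Of the 3 members tested in macrophages (Nos2 had too few counts), 1 (Il4ra) was called lower at D10 than at D1, where 7.04% of all genes were called lower. At D21, 2 (Chil3 and Il4ra) were called lower against 1.61% of genes; 0 were called with the pool term or without cluster 3. From D3 to D10 none was called by edgeR, where 0.583% of genes were called lower; 0 of the 3 had an unadjusted p under 0.05, and DESeq2 called 0. No member was called between D1 and D2 or between D1 and D3 in edgeR, where the share of genes called was 0%, nor in DESeq2. At an unadjusted p under 0.05 there were 0 and 1 of the 3 members and 123 and 612 of all genes in those comparisons, and within the mixed libraries alone 2 members were called lower from D1 to D3, against 4.82% of genes. Time point and sequencing pool cannot be told apart for D10 against D1, since no pool held macrophage libraries of both.

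Other cell markers moved with these changes. In macrophages 1 of 6 border macrophage markers (Pf4) was raised over other cells, with Mrc1 at 19.9 CPM, Cd163 at 1.37 CPM and Lyve1 at 0.388 CPM. The summed border list ran from 283 to 6009 CPM at D1 and from 25.3 to 56.2 CPM at D10. The microglia list in macrophages ran from 304 to 1250 CPM at D1 and from 857 to 3163 CPM at D10, and the granulocyte progenitor list from 2.43 to 53.3 CPM at D1. At D10 the granulocyte progenitor list split by sort as Chil3 did, at 8.92 and 14.9 CPM in infiltrating and 2460 and 6225 CPM in mixed libraries. The monocyte list did too, at 719 and 1422 CPM against 4823 and 5074 CPM (1233 to 3283 CPM at D1). At D21 the progenitor list was 2550 CPM in the infiltrating library, the higher one in Chil3, and 0 in the mixed one, and the monocyte list 2901 and 83.6 CPM. The microglia list was 2088 and 4038 CPM in the same order. The part of these lists in the changes of Chil3, Il4ra and Odc1 was not tested.

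The clusters that make up macrophages changed as well. Cluster 11 held 53.9% of macrophages at D1 and 49.9% at D2, and cluster 9 held 57.7% at D3 and 64.0% at D10. Cluster 3, made up mainly of microglia and with Chil3 at 6.20 CPM, held 0.154% of macrophages at D1, 21.7% at D10 and 67.1% (112 of 167 cells) at D21. Without it D21_mixed 1 kept 7 cells and left the fit, and D21_infiltrating 1 kept 48 with Chil3 at 184 CPM and Il4ra at 56.5 CPM. At D10 Chil3 was then 65.8 and 373 CPM (infiltrating) and 1339 and 835 CPM (mixed), and Il4ra was still called against D1 (log2 change -2.10; edgeR adjusted p = 0.00324). Chil3 differed between time points within clusters too, counted in infiltrating, mixed and resident libraries with at least 20 cells of the cluster. D3_conflict 1 is left out of these counts. In cluster 9 it went from 1365 CPM at D1 through 164 and 361 CPM at D3 to 22.6, 27.4 and 39.4 CPM at D10. In cluster 8 Chil3 was 844 and 2118 CPM at D1 and 91.8 and 168 CPM at D3. In cluster 11 Chil3 was 2708 and 2911 CPM at D1, 892 to 3710 CPM at D2 and 1274 to 2769 CPM (median 1573) at D3. D3_conflict 1 had 4060 CPM in cluster 11, above all of these libraries. In cluster 12 Chil3 was 5083 and 5568 CPM at D1 and 4980 and 5982 CPM at D2. The D3 library counted had 3294 CPM, below every earlier one, while D3_conflict 1 had 6657 CPM, above all of them. Il4ra in cluster 9 was 79.5 CPM at D1, 90.7 and 36.9 CPM at D3, 42.5, 73.9 and 36.5 CPM at D10, and 134 CPM in the D21 library (21 UMIs in 29 cells). Its D10 libraries there lay below that of D1, 1 of them closely, and the D21 library lay above it, unlike in macrophages as a whole. Odc1 in cluster 9 was 32.6 CPM at D1, 45.4 and 26 CPM at D3, and 18.4, 29.6 and 30.4 CPM at D10. The D1 library lay above the 3 of D10, and those of D3 overlapped both times. These values are descriptions, with few libraries each.

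**Figure D3:**
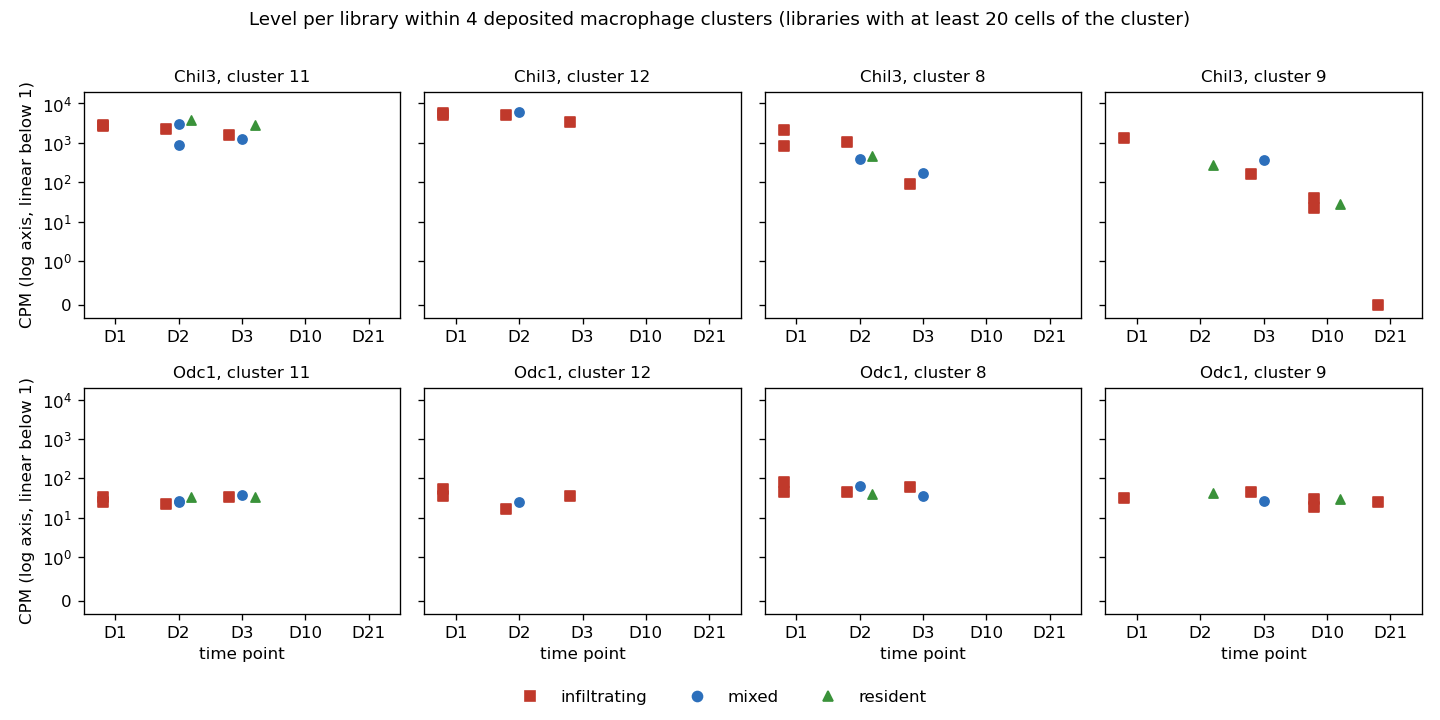
CPM per library (points, log axis, linear below 1) of Chil3 (upper row) and Odc1 (lower row) in macrophage clusters 11, 12, 8 and 9 over time; libraries with under 20 cells of a cluster are not drawn. In cluster 9 Chil3 goes from 1365 CPM at D1 to 39.4 CPM or less at D10. In cluster 12 it is 5083 and 5568 CPM at D1 and 3294 CPM in 1 D3 library. D3_conflict 1, at 6657 CPM in cluster 12, is not drawn.

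By the rule of likeness, the genes whose log2 levels ran most like Chil3 over the 15 macrophage sums were Ube2j2 (0.969), the calcium-binding S100a6 (0.958) and S100a10 (0.948), Tmem167 (0.944) and Cript (0.943). For Odc1 they were the translation factor Eif2s1 (0.923), the chaperonin subunit Cct3 (0.907), Mphosph10 (0.894), Letm1 (0.893) and the proteasome subunit Psma5 (0.884). Over the 16 clusters the lists changed: the coagulation factor F10 led for Chil3 (0.971), ahead of Mmp8, Metrnl, Emilin2 and Sirpb1c, and the ribosome assembly factor Bop1 led for Odc1 (0.905), ahead of Hspa9, Mrto4, Eif3j1 and Eif3b. These correlations are Pearson's r of log2(CPM + 5), taken over points that share libraries and depth, and carry no p.

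Of the other genes of arginine and polyamine metabolism, 27 of 34 passed the expression filter in macrophages, and 2 were called higher and 5 lower at D10 than at D1 (edgeR; median log2 change -0.21, against 0.01 over all genes). Over all genes 7.31% were called higher and 7.04% lower, so the share of higher calls was near the background. Those that fell included Gch1, which starts synthesis of the nitric oxide synthase cofactor tetrahydrobiopterin (129 ± 44.1 to 20.1 ± 3.57 CPM; SD, n = 4 and 4), and Smox, spermine oxidase (147 ± 44.2 to 26.2 ± 8.25 CPM). Slc3a2, the heavy chain of amino acid transporters, went from 434 ± 138 to 125 ± 55.2 CPM, and Azin1, the antizyme inhibitor that protects Odc1 protein, from 124 ± 19.3 to 39.8 ± 15.3 CPM. Of 24 genes of IL-4 and IL-13 signalling, 19 were tested, 5 were lower and none higher, among them the feedback inhibitors Socs3 (226 ± 33.8 to 22.8 ± 7.23 CPM) and Socs1 (27.5 ± 12.1 to 4.37 ± 1.96 CPM). Kdm6b, a histone demethylase, went from 81.0 ± 29.1 to 12.2 ± 3.32 CPM, and the transcription factor Cebpb from 2433 ± 542 to 556 ± 40.5 CPM. The list of alternative activation targets had 9 of 18 tested genes lower and 1 higher (median log2 change -2.42). Il1rn, the IL-1 receptor antagonist, went from 272 ± 84.9 to 4.42 ± 2.45 CPM in it, and Vegfa from 47.0 ± 35.2 to 2.49 ± 1.34 CPM. The list of classical activation had 5 of 21 lower and 1 higher (median -1.63), including the chemokine Cxcl10 (464 ± 313 to 18.9 ± 27.7 CPM) and Hif1a (450 ± 112 to 94.0 ± 18.2 CPM). Lower calls were thus found in the alternative and in the classical list alike, and how the lists differ was not tested.

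Microglia were compared with the 2 control libraries over the resident and mixed sorts, across 10801 genes. Odc1 was the member with the smallest adjusted p at D1. It was 12.5 CPM (mixed) and 21.6 CPM (resident) in controls and 94.7, 106 and 104 CPM in the 3 D1 libraries, all mixed. At D2 it was 61.7 and 22.2 CPM (mixed) and 32.2 CPM (resident). The D1 libraries lay close together and above all others. The change was 3.50 ± 0.40 (log2, SE; edgeR adjusted p = 8.89e-06; at most 0.00264 over the alternatives). Odc1 then fell by 2.14 ± 0.28 from D1 to D3 (edgeR adjusted p = 0.000108), to 16.9 to 35.7 CPM over 5 libraries (median 25.8), and stood at 18.4 to 26.2 CPM at D10 and 19.6 CPM in the D21 library. In mixed libraries alone the Odc1 estimates against controls were 2.72 at D2 and 3.12 at D3 (log2). That fit had 1 control library, which was female, while all mixed D1, D3 and D10 libraries were male. With sex as a term, it took the sex difference from D2, the only time point with mixed libraries of both sexes. Odc1 was called higher than in controls at D2 and D3 (edgeR adjusted p = 0.00308 and 0.00763), by 1.73 and 1.36 on the log2 scale. It was not called without Ctrl_mixed 1 (1.08 and 0.79; 0.140 and 0.188) or with the pool term (1.17 and 0.28; 0.0759 and 0.922), nor, at D2, without D2_mixed 1 (1.27; 0.0524). At equal depth the D3 change was 2.22 ± 0.96 and missed the threshold (0.0764), as did the fall from D1 to D3 (-1.68; 0.0570). At D10 it was not called against controls (edgeR adjusted p = 0.0739), but was with the pool term (1.14; 0.0145). D1 microglia libraries shared no sequencing pool with those of controls, D3 or D10. The time point therefore cannot be told apart from the pool in any of these comparisons with D1.

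The clusters that make up microglia changed between the groups compared. All 1887 control microglia lay in cluster 1, which held none at D1. At D1 cluster 5 held 69.9% and cluster 2 held 27.4%, and at D10 cluster 3 held 48.7% and cluster 4 32.8%, so these comparisons set cells of mainly different clusters side by side. Within cluster 5 Odc1 was 95.4, 106 and 102 CPM in the D1 libraries and 52.2 and 50.5 CPM in the D10 libraries with at least 20 such cells, a smaller gap than in microglia as a whole. That was not so in cluster 2, where Odc1 was 80.0 to 113 CPM (median 86.3) at D1. At D10 it was 0 to 49.8 CPM there (median 15.2, 4 libraries of any sort). The part of the cluster makeup in the changes of Odc1, Il4ra and Chil3 was not tested.

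Il4ra in microglia was higher at D1 and lower after it. Controls had 81.5 and 111 CPM and D1 libraries 73.9, 207 and 220 CPM, so 1 D1 library overlapped the controls in raw CPM. The scaling of the fit, TMM, multiplied library sizes by 1.38 and 1.46 in controls and by 0.843 to 0.905 at D1, and on that scale Il4ra rose by 1.56 ± 0.43 (log2, SE; edgeR adjusted p = 0.00635). That call was not past the threshold without Ctrl_mixed 1 (1.35) or in mixed libraries alone (3.03 ± 1.14). Each of these fits had 1 control library, and in the mixed fit it was female against male D1 libraries. Il4ra then fell by 2.32 ± 0.33 from D1 to D3 (edgeR adjusted p = 0.000201). It was 22.7 to 45.7 CPM at D3, 34.2 to 36.2 CPM at D10 and 34.6 CPM at D21. At D10 and D21 it was not called against controls (edgeR adjusted p = 0.199 and 0.548).

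**Figure D4:**
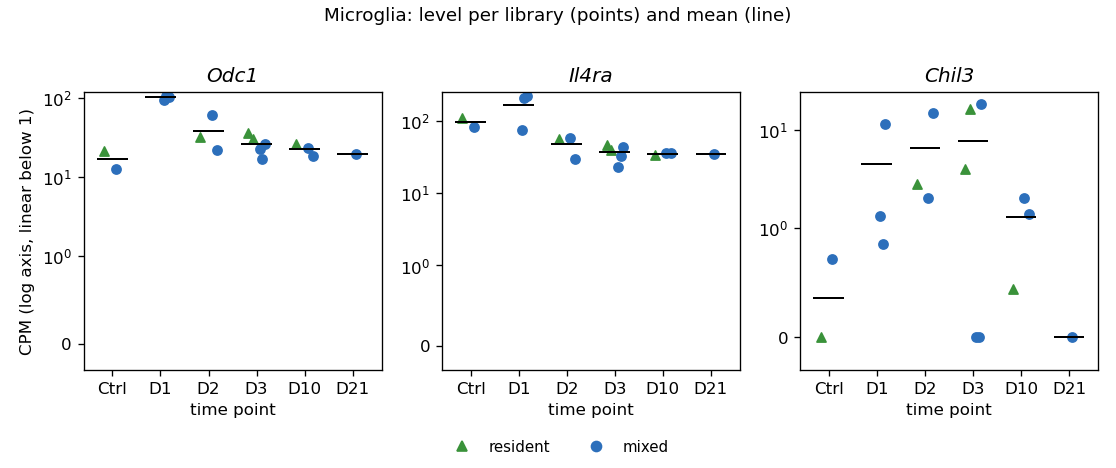
CPM per library (points, log axis, linear below 1) of Odc1, Il4ra and Chil3 in microglia, with the mean as a line. The 3 D1 libraries have Odc1 at 94.7 to 106 CPM against 12.5 and 21.6 CPM in controls, and Il4ra is at 34.2 to 36.2 CPM in the D10 libraries.

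Chil3 in microglia had 4 UMIs in controls and 58 at D1, of which 49 came from D1_mixed 3. The D1 libraries had 1.31, 0.855 and 11.4 CPM and were not called (edgeR adjusted p = 0.0992). The D3 libraries ranged from 0 to 18.2 CPM and were called against controls (log2 change 4.17 ± 1.45; edgeR adjusted p = 0.0310). That call was not past the threshold without Ctrl_mixed 1 (7.95; adjusted p = 0.0667), Ctrl_resident 1 (3.1; 0.262) or D3_resident 2 (3.83; 0.0594), with the pool term (5.27; 0.537) or in mixed libraries alone (1.42; 0.846). The summed monocyte list in microglia was 26.4 to 65.8 CPM in controls and 6.78 to 26 CPM at D1. At D3 it moved with Chil3, at 61.6 and 34.6 CPM in D3_resident 2 and D3_mixed 3 (Chil3 at 16.4 and 18.2 CPM) and at 0 and 5.06 CPM in D3_mixed 1 and D3_mixed 2 (no Chil3 UMI). The macrophage list was 339 to 384 CPM in controls, 988 to 1628 CPM at D1, 1865 to 2797 CPM at D3 with the highest values in the same pair with Chil3, and 2314 to 3520 CPM at D10. From controls to D1 the border macrophage list went from 2.14 and 7.01 CPM to 36.8 to 156 CPM, and the dendritic list from 981 and 1216 CPM to 44.5 to 126 CPM. The part of other cells in these levels, and in those of Odc1 and Il4ra, was not tested.

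Of the 3 members tested in microglia (Nos2 had 1 UMI), 2 (Il4ra and Odc1) were called higher at D1, where 23.9% of all genes were. At D2, 1 (Odc1) was called higher (17.6% of genes) and at D3 2 (Chil3 and Odc1; 20.1%). In edgeR none was called against controls at D10 (10.3% of genes in either direction) or D21 (6.98%), where 2 and 0 members had an unadjusted p under 0.05 and DESeq2 called 0 and 0. Il4ra and Odc1 were called lower from D1 to D10 (16% of genes lower) and from D1 to D3 (10.2% lower). No pool held microglia libraries of D1 together with those of D3 or D10, so time point and pool cannot be told apart there. From D3 to D10 none was called in edgeR (3.92% of genes lower) or DESeq2, and 1 had an unadjusted p under 0.05. With sequencing pool as a term no member was called against controls at D2 or D3, and 1 (Odc1) was at D10.

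Around Odc1, 16 of 28 tested genes of arginine and polyamine metabolism were called higher in microglia at D1 and 2 lower (edgeR; median log2 change 1.22, against -0.01 over all genes). Over all genes 23.9% were called higher and 22.7% lower. Srm, spermidine synthase, went from 47.3 ± 8.58 to 281 ± 58.4 CPM (SD, n = 2 and 3). Eif5a, the translation factor that carries hypusine made from spermidine, went from 278 ± 61.3 to 1799 ± 145 CPM. Ass1, which rebuilds arginine from citrulline, went from 3.59 ± 2.55 to 53.5 ± 18.4 CPM, and Gch1 from 7.79 ± 1.87 to 27.1 ± 16 CPM. In the list of alternative activation targets 10 of 15 tested genes were higher and none lower. Msr1 went from 3.68 ± 1.66 to 736 ± 181 CPM, Ch25h, which makes 25-hydroxycholesterol, from 1.26 ± 0.513 to 118 ± 80.2 CPM, and Il1rn from 0.897 ± 0.258 to 69.7 ± 47.2 CPM. Of the IL-4 and IL-13 signalling genes 1 of 19 was higher and 5 were lower, including the kinases Tyk2 (39.9 ± 8.42 to 4.19 ± 0.392 CPM) and Jak2 (21.5 ± 2.18 to 4.61 ± 2.23 CPM). Of the classical list 4 of 22 were higher and 5 lower, near those shares: the chemokine Ccl5 went from 14.8 ± 7.92 to 212 ± 142 CPM and the transcription factor Irf1 from 53.1 ± 6.58 to 7.33 ± 1.93 CPM. Of the chitinase-like genes 2 of 3 tested were lower, Chil1 (24.2 ± 11.5 to 0.879 ± 1.33 CPM) and Ctbs (86.0 ± 3.44 to 32.0 ± 11.7 CPM). At D10 against D3, where 3.92% of all genes were called lower, 2 of 28 arginine and polyamine genes were, Eif5a (799 ± 186 to 390 ± 45.4 CPM; n = 5 and 3) and Oaz1, the antizyme that sends Odc1 protein to degradation (1267 ± 162 to 745 ± 77.8 CPM). With the pool term 0 genes were called in that comparison (526 at an unadjusted p under 0.05).

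The fall of Odc1 from D1 to D10 differed between the cell types. A fit of both types together gave a macrophage change minus microglia change of 1.72 ± 0.45 (log2, SE; edgeR adjusted p = 0.0163), with Odc1 going from 102 ± 6.01 to 22.6 ± 3.88 CPM in microglia (SD, n = 3 and 3) and from 44.7 ± 9.50 to 32.9 ± 15.7 CPM in macrophages (n = 4 and 4). Odc1 was 1 of 4 members called, where 6.45% of genes were called in that direction. Several mixed libraries, among them D1_mixed 1, D1_mixed 3, D10_mixed 1 and D10_mixed 2, gave that fit a sum of each type. Sums of the same library are not independent but were treated as such. The call was not past the threshold without D10_mixed 1 (adjusted p = 0.0713) or D10_mixed 2 (0.131), at equal depth (1.24; 0.348) or without cluster 10 (1.24; 0.0681). Within microglia the fall from D1 to D10 was -2.44 (edgeR adjusted p = 8.08e-05) and -1.84 at equal depth (0.0545), between libraries filled mainly by different clusters. For Il4ra and Chil3 no difference between the types was called (edgeR adjusted p = 0.827 and 0.716).

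**Figure D5:**
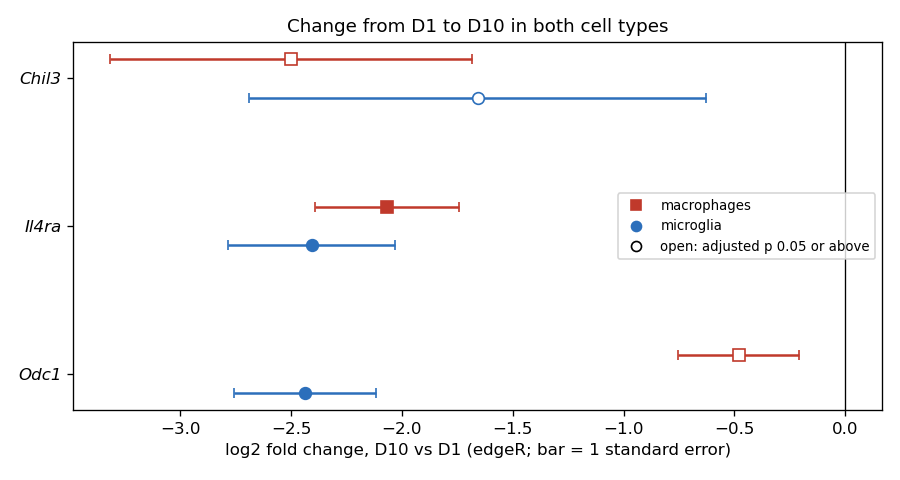
Log2 fold change from D1 to D10 (x axis; points are edgeR estimates, bars 1 standard error) for 3 genes in macrophages (squares) and microglia (circles); open symbols have an adjusted p of 0.05 or above. Il4ra fell in both, and Odc1 fell in microglia by 2.44 against -0.48 in macrophages.

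Nos2 (plus strand, chr11:78920787-78960254) was an early and rare transcript. In macrophages the infiltrating and mixed libraries held 101 UMIs at D1, 53 at D2, 5 at D3 and none later. D1_infiltrating 2 held 91 of the 101 (5.68 CPM), D1_mixed 3 had 7 (17.0 CPM) and D1_infiltrating 1 had 3 (0.198 CPM), and 50 of those at D2 came from D2_infiltrating 1 (8.49 CPM). At D10 a count of 0 allows up to 0.487 CPM, at least 6.52-fold below D1, a bound that rests on D1_infiltrating 2 and is 1.30-fold without it. A Nos2 UMI was found in 84 of 12841 macrophages (0.654%) and 66 of 2116 neutrophil-like cells (3.12%), against 1 of 13289 microglia (0.00753%). D1_infiltrating 2 held 44 of those macrophages and D2_infiltrating 1 held 37 of those neutrophil-like cells. Without them the shares were 0.365% (40 of 10956) and 1.53% (29 of 1893). Median depths were 9144, 2154 and 3062 UMIs in the same order. In neutrophil-like cells Nos2 was 4.57 and 14.8 CPM in the D1 libraries and 20.8 and 101 CPM in the D2 ones. Their Chil3 was 809 and 1199 CPM at D1 and 218 and 2476 CPM at D2, and their Il4ra 288 and 443 CPM and then 135 and 666 CPM. In dendritic-like cells Chil3 was 91.8 and 633 CPM in the D1 libraries, 190 and 36.3 CPM at D2, 7.11 and 19.6 CPM at D3, 19.9 and 0 CPM at D10, and 48.9 CPM (15 UMIs in 25 cells) in 1 library of D21. Libraries with at least 20 such cells are given, and no test was made.

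The sorts were compared over all cells of 7 infiltrating and 5 resident libraries, with time point and sex as terms. None of the 3 members tested was called in edgeR, where 10.7% of genes were; 2 of the 3 (Chil3 and Il4ra) had an unadjusted p under 0.05, and DESeq2 called 1. Chil3 was 58.9 to 2623 CPM (median 860) in infiltrating and 0 to 878 CPM (median 273) in resident libraries. The ranges overlapped. The log2 difference of Chil3 was 2.26 ± 0.79 (SE; edgeR adjusted p = 0.101), 3.38 without D3_infiltrating 1 (adjusted p = 0.0121) and 2.36 with D3_conflict 1 as an infiltrating library (0.0260). In these sums a difference can come from the share of each cell type as well as from its level.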

How the data were processed

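The deposited files hold raw UMI counts per gene and cell, 1 table per library, and a table of cell codes (cell type, cluster, sequencing pool) with the percent of mitochondrial UMIs per cell as the authors gave it. Per the submitters' processing notes, Cell Ranger 3.1.0 and GRCm38/mm10 were used; cell filters and doublet treatment are not given in the sources used here. Columns of other series numbered 0, and 2 whole-series matrices were not used here.

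Counts were summed per library and cell type where at least 20 cells were present. Sums were tested with edgeR 4.0.16 (R 4.3.3; TMM, filterByExpr, quasi-likelihood, time point and sex as terms), with Benjamini-Hochberg adjustment over all genes and a threshold of 0.05. The microglia fit took resident and mixed libraries (17 sums), the macrophage fit infiltrating and mixed ones (15 sums), and 1 joint fit gave the difference between types. D21 microglia had 1 library, assumed to vary like the others. The same was assumed in mixed libraries alone for controls (1 library, female) and for D3 macrophages (1 library). Intervals and floors cover counting error only. Alternatives were median-of-ratios scaling, DESeq2 1.42.0, no filter, at least 50 cells, a pool term, equal depth, clusters 2 or 10 left out, single sorts, the conflicting library, and each library left out. Resident libraries added to macrophages, cluster 3 left out of them, and the unblocked fit on the libraries of the replicate block, were chosen after seeing the data. The tests were checked on simulated data.

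The genes named besides the members were, per list and comparison, up to 4 called genes with the largest change and at least 20 CPM, and the 5 most alike by correlation among genes with a mean of at least 20 CPM. The members and lists were chosen with earlier results of these data known. Of the 6 genes chosen by name 4 are described, and some genes are not reported here; counts of members are over the 4. Promoters were matched by symbol to a RefSeq table (GRCm38.p6).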

Additional observations from a re-analysis of the deposited data

Results flagged for a closer look

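Of 10 groups of 4 to 10 libraries examined for a library far from the others, 0 had one.

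The change of Odc1 from D1 to D10 differed between macrophages and microglia, by 1.72 on the log2 scale (edgeR adjusted p = 0.0163 for the difference itself). In that fit, sums of both types from the same library were treated as independent. The call was not past the threshold at equal depth (adjusted p = 0.348), without cluster 10 (0.0681), without D10_mixed 1 (0.0713) or without D10_mixed 2 (0.131).

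The library with disagreeing labels, D3_conflict 1, was in none of the main comparisons. Its macrophages had Chil3 at 4062 CPM, Odc1 at 35.4 CPM and Nos2 at 0.450 CPM. The highest control microglia values were 0.715, 21.6 and 0 CPM for the same genes. That Chil3 level was above all other macrophage libraries, which had 343 to 2348 CPM at D3 and up to 3106 CPM at D1, and its Odc1 lay within the 26.6 to 38.6 CPM of the other D3 libraries with at least 20 macrophages.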

How the results depend on the processing

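The count of members called stayed within 1.5 times its value in 386 settings and moved beyond that in 52. In microglia against controls, members called went at D1 from 2 to 1 in mixed libraries alone. With the pool term they went at D2 from 1 to 0, at D3 from 2 to 0 and at D10 from 0 to 1. At D3 they also went to 0 at equal depth and to 1 in mixed libraries alone. Equal depth took D3 against D1 and D10 against D1 from 2 to 1 each, and no filter took D10 against D3 from 0 to 1. In macrophages, D3 against D1 moved in mixed libraries alone, where D3 had 1 library. D10 against D1 went from 1 to 2 with DESeq2, no filter, at least 50 cells, equal depth, without cluster 2 or 10 and with resident libraries added, and to 3 in infiltrating ones. D21 against D1 went from 2 to 0 with the pool term and without cluster 3, and to 1 at equal depth, without cluster 10, with the conflicting library and in mixed libraries alone. D10 against D3 went from 0 to 1 in infiltrating libraries and with resident ones added. The sort comparison went from 0 to 1 with DESeq2, no filter and the conflicting library. The difference between cell types at D10 against D1 went from 1 to 0 at equal depth and without cluster 10. Odc1 in macrophages from D1 to D10 was -0.48 and turned to 0.031 in mixed libraries alone. The cause was not tested in these cases, apart from the fewer samples in single sorts. Leaving out 1 library at a time gave, in microglia, 1 to 2 members at D1, 0 to 1 at D2, 0 to 2 at D3, 0 to 1 at D10 and 0 to 0 at D21 against controls, 2 to 3 for D3 against D1, 0 to 1 for D10 against D3 and 2 to 2 for D10 against D1. In macrophages it gave 0 to 0 for D2 and for D3 against D1, 1 to 2 for D10, 0 to 2 for D21, and 0 to 0 for D10 against D3. It gave 0 to 1 for the sorts, and 0 to 0 (D3) and 0 to 1 (D10) for the difference between types. Replicate numbers did not pair the samples: correlations of same-numbered libraries ran from -0.198 to 0.122. With the replicate block 2 members were called in microglia for D3 against D1, 0 for D10 against D3 and 2 for D10 against D1, and without it on the same libraries 2, 0 and 2. Median-of-ratios scaling moved the median gene by -0.17 for D1 against controls.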
